A study of Mus musculus with 5 samples.

Results

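The lysosomal cathepsins are represented here by 9 mouse genes, Ctsa, Ctsb, Ctsc, Ctsd, Ctsf, Ctsh, Ctsl, Ctss and Ctsz, taken by name from a table of 34240 features; cathepsin G, a granule serine protease, was not counted among them. RNA sequencing had been done on 5 libraries of sorted cells from BALB/c mice aged 10 to 12 months. Normal cells positive for the myeloid surface antigens Gr1 and Mac1, from bone marrow, make up 3 libraries. The other 2 hold acute myeloid leukaemia (AML) cells sorted for Mac, Gr1 and B220 from bone marrow and spleen. CNTRL-FGFR1, which joins the centrosome protein centriolin to the kinase FGFR1, had induced this leukaemia. Neither the delivery of the fusion nor the number of animals behind each library is stated by the labels, so the p-values speak only of spread among libraries, which may be technical. Itgam, the Mac1 alpha chain, and Ly6g, part of the Gr1 epitope, were transcribed in every library (Itgam at 580, 458 and 429 RPKM in normal and 251 and 169 RPKM in AML libraries). Spleen and B220 belong to the AML group alone and cannot be told apart from leukaemia. Values were taken to be RPKM, read numbers divided by exon length and by the mapped reads of the library, though no label names the unit. On that reading levels of different genes can be set side by side. A difference in a bulk library cannot tell fewer cells of a type from less RNA per cell.

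Cathepsins are proteases that digest proteins in the acid interior of lysosomes. Most are made as inactive precursors, carried there by mannose 6-phosphate receptors and activated by cleavage. Ctsb, Ctsc, Ctsf, Ctsh, Ctsl, Ctss and Ctsz encode cysteine proteases of the papain family, Ctsd an aspartic protease and Ctsa a serine carboxypeptidase. In myeloid cells Ctsc has a further role: its product, dipeptidyl peptidase I, removes the N-terminal dipeptide that keeps neutrophil elastase, proteinase 3 and cathepsin G inactive. Ctss encodes the protease that trims the invariant chain of MHC class II in antigen-presenting cells.

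Of the 9 cathepsin genes 4 fell in AML cells, namely Ctsh, Ctsc, Ctss and Ctsl, and none rose. Among the 8 that were tested, 4 did not pass, namely Ctsa, Ctsb, Ctsd and Ctsz, and Ctsf lay under the filter of 1 RPKM in at least 2 libraries. Over all 10166 genes tested, 11.8% were called lower, 19.3% higher and 31.0% in either direction (limma on log2(RPKM + 1), Benjamini-Hochberg adjusted p under 0.05). At an unadjusted p under 0.05, 6 cathepsins were lower (Ctsa and Ctsd being added) and 0 higher (limma). The median log2 fold change was -1.64 over the 8 tested cathepsins and 0.12 over all genes tested. Both AML libraries lay under every normal library for 7 cathepsins, all but Ctsb and Ctsf, an arrangement found in 22.1% of the genes tested. Direction went with the number of decimals deposited. Higher means in AML cells were found for 11.9% of tested genes with 1 decimal and 94.5% of those with 2. Of the cathepsins 8 had 1 decimal, so lower means are common among rows of their format. Why the formats differ was not tested. With every library rescaled to the same total without the abundant S100a8 and S100a9, calls over all genes changed from 1959 higher and 1196 lower to 1252 and 1366, and 5 cathepsins were called lower, the fifth being Ctsa.

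**Figure D1:**
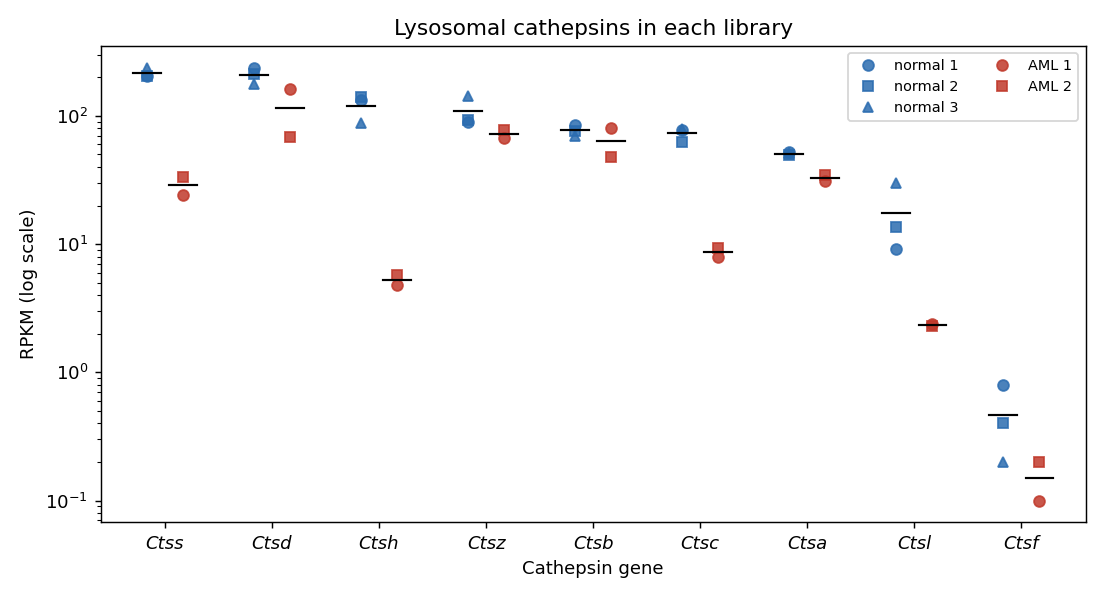
RPKM of each cathepsin gene (log scale) in 3 normal libraries (blue) and 2 AML libraries (red), in the order of the normal mean, with black bars at group means. Ctss, Ctsh, Ctsc and Ctsl are far lower in both AML libraries, whereas the points of Ctsb and Ctsf overlap between the groups.

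Ctsh, an aminopeptidase of the papain family (ENSMUSG00000032359, chromosome 9, 89948990 to 89970927, mm9), fell most of the 9 genes. In normal libraries 1 to 3 it was listed at 132.3, 140.6 and 87.3 RPKM, and the AML libraries 1 and 2 held 4.8 and 5.7 RPKM. The groups lay far apart, and normal library 3 was the lowest of its group. AML cells thus held 4.37% of the normal mean (120 ± 28.7 RPKM, SD, n = 3, against 5.25 ± 0.636 RPKM, SD, n = 2). The log2 fold change was -4.25 (SE 0.28, limma, Benjamini-Hochberg adjusted p = 0.00031).

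Ctsc (ENSMUSG00000030560, chromosome 7, 95426595 to 95459398, mm9) fell to 11.7% of its normal level. Its values were 78.2, 63.1 and 79.6 RPKM in normal and 8 and 9.3 RPKM in AML libraries, with little spread in either group. The log2 fold change was -2.95 (SE 0.23, limma, Benjamini-Hochberg adjusted p = 0.00043). Among tested genes Olfm1, Rara and L1cam had the profiles most like that of Ctsc over the 5 libraries, with Euclidean distances between centred log2(RPKM + 1) values of 0.13, 0.18 and 0.24. Their fold changes were -2.91, -2.88 and -2.79 on the log2 scale. Since these genes were chosen for closeness to Ctsc, such similar fold changes follow from the choice.

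Ctss (ENSMUSG00000038642, chromosome 3, 95330708 to 95360325, mm9) was the most abundant cathepsin by mean in normal cells. It was listed at 203.7, 204.8 and 235.1 RPKM there and at 24.1 and 33.4 RPKM in AML cells, 13.4% of the normal mean. The groups did not overlap, and the log2 fold change was -2.87 (SE 0.25, limma, Benjamini-Hochberg adjusted p = 0.00057).

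Ctsl, an endopeptidase of the papain family (ENSMUSG00000021477, chromosome 13, 64464522 to 64471614, mm9), was scarcer and more variable among normal libraries. It stood at 9.2, 13.5 and 30.1 RPKM in normal and 2.4 and 2.3 RPKM in AML libraries. Normal library 3 was well over the other two, and the AML pair was nearly equal and under all of them. The log2 fold change of -2.31 (SE 0.45, limma, Benjamini-Hochberg adjusted p = 0.010) lost its call without AML library 1 (adjusted p = 0.065) or AML library 2 (adjusted p = 0.088). Without normal library 3 it was -1.86, and it passed. Of the placental cathepsins related to Ctsl, 9 rows (Cts3, Cts6, Cts7, Cts8, Ctsj, Ctsll3, Ctsm, Ctsq and Ctsr) reached at most 0.02 RPKM in any library.

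The 4 tested cathepsins that did not pass each had a somewhat lower mean in AML cells. Ctsd, the main aspartic protease of lysosomes (ENSMUSG00000007891, chromosome 7, 149557053 to 149573943, mm9), stood at 238.01, 210.88 and 176.88 RPKM in normal and 161.13 and 67.97 RPKM in AML libraries. The groups did not overlap, but the AML libraries lay 2.37-fold apart. Its log2 fold change of -0.98 (95% interval -1.90 to -0.055, limma, Benjamini-Hochberg adjusted p = 0.098) passed only without normal library 3 (adjusted p = 0.046) or AML library 1 (adjusted p = 0.040) among 14 other settings, and shrank to -0.36 without AML library 2.

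Ctsa, protective protein of the sialidase and beta-galactosidase complex (ENSMUSG00000017760, chromosome 2, 164658373 to 164666532, mm9), was listed at 52, 49.4 and 51 RPKM in normal and 31.1 and 34.7 RPKM in AML libraries. This small difference, with a log2 fold change of -0.61 (95% interval -1.12 to -0.11), gave an adjusted p of 0.069 (limma, Benjamini-Hochberg). It passed under upper quartile scaling (0.047), quantile normalization (0.039) and total scaling without S100a8 and S100a9 (0.027).

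Ctsz, a carboxypeptidase of the papain family (ENSMUSG00000016256, chromosome 2, 174252994 to 174264540, mm9), stood at 89, 93.1 and 143.2 RPKM in normal and 67.1 and 77.1 RPKM in AML libraries. Normal library 3 was again the highest. The log2 fold change was -0.55 (95% interval -1.23 to 0.13, limma, Benjamini-Hochberg adjusted p = 0.18).

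Ctsb, an abundant papain-family protease of many tissues (ENSMUSG00000021939, chromosome 14, 63741302 to 63764758, mm9), was listed at 84.4, 76.7 and 70 RPKM in normal and 80.2 and 47.5 RPKM in AML libraries. AML library 1 lay within the normal range. The log2 fold change was -0.31 (95% interval -0.99 to 0.37, limma, Benjamini-Hochberg adjusted p = 0.43), and it was 0.061 without AML library 2.

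Ctsf, also of the papain family (ENSMUSG00000083282, chromosome 19, 4855129 to 4860912, mm9), was barely detected, at 0.8, 0.4 and 0.2 RPKM in normal and 0.1 and 0.2 RPKM in AML libraries. These values were deposited with 1 decimal, so rounding alone spans a large part of them, and the groups overlapped. With no filter its log2 fold change was -0.33 (limma, Benjamini-Hochberg adjusted p = 0.29).

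**Figure D2:**
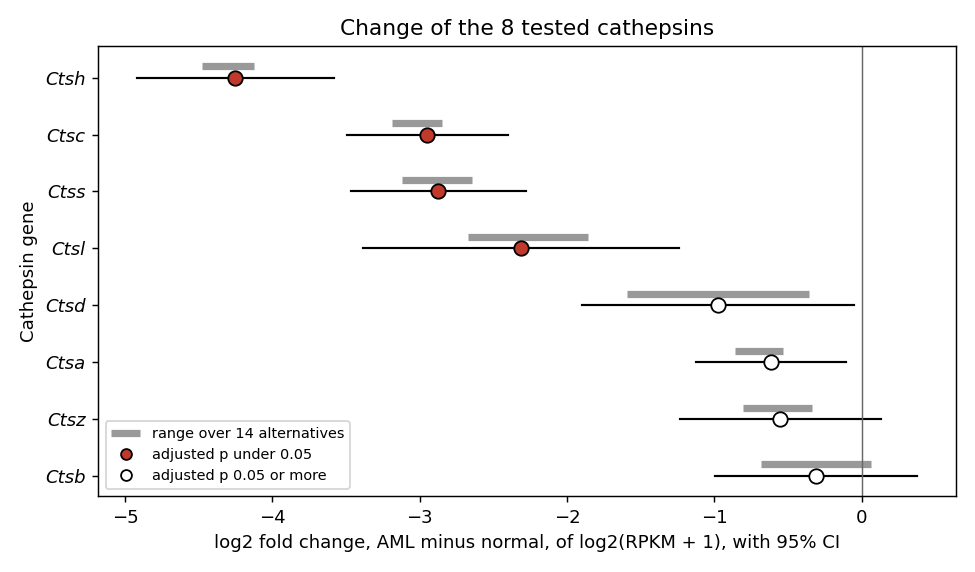
Log2 fold change of log2(RPKM + 1), AML minus normal, of the 8 tested cathepsins (circles, red where adjusted p was under 0.05) with 95% confidence intervals (black) and the range over 14 other settings (grey). Ctsh, Ctsc, Ctss and Ctsl lie at or below -2.31, and the other 4 lie between -0.98 and -0.31.

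The order of the cathepsins by level differed between the groups. In normal cells Ctss (mean 215 RPKM) and Ctsd (209 RPKM) led and could not be ranked, since Ctss was above Ctsd in 1 of 3 libraries only. Ctsh and Ctsz came next with overlapping ranges, then Ctsb and Ctsc, also overlapping, then Ctsa, Ctsl and Ctsf in clear steps. In AML cells Ctsd, Ctsz and Ctsb (means 115, 72.1 and 63.9 RPKM) overlapped at the top. Ctsa (32.9 RPKM) and Ctss (28.8 RPKM) overlapped below them, and Ctsc, Ctsh, Ctsl and Ctsf followed in that order in both libraries. Ctsh ranked 3, 3 and 4 of 9 in the normal libraries and 7 in both AML libraries.

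Summed over the 9 genes, cathepsin RPKM came to 888, 852 and 873 for normal libraries 1 to 3, against 379 for AML library 1 and 278 for AML library 2. The sums did not overlap and the means differed 2.65-fold; with 3 against 2 libraries the smallest two-sided p of an exact permutation test is 0.2, which this sum gave. Ctss made up 24.6% ± 2.05 (SD, n = 3) of the normal sum and 9.18% ± 3.99 (SD, n = 2) of the AML sum, and Ctsh 13.8% ± 3.39 and 1.66% ± 0.553. Mean shares of Ctsb, Ctsz and Ctsa were larger in AML cells: 8.84% ± 0.759 against 19.1% ± 2.89 for Ctsb, 12.4% ± 3.45 against 22.7% ± 7.08 for Ctsz and 5.83% ± 0.0326 against 10.3% ± 3.02 for Ctsa. Shares within a library are parts of the same sum, so some must rise when others fall. The mean RPKM of Ctsb, Ctsz and Ctsa was itself lower in AML cells. The share of Ctsd overlapped between the groups, at 20.3% to 26.8% in normal libraries and at 42.5% and 24.4% in AML libraries 1 and 2.

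Ratios to Ctsb within a library do not depend on how libraries are scaled against each other. Ctsh to Ctsb was 1.57, 1.83 and 1.25 in normal and 0.0599 and 0.12 in AML libraries. Ctsc to Ctsb was 0.927, 0.823 and 1.14 in normal and 0.0998 and 0.196 in AML libraries. Ctss to Ctsb was 2.41, 2.67 and 3.36 in normal and 0.300 and 0.703 in AML libraries. These 3 ratios kept the groups apart, with every AML library below every normal library (exact permutation p = 0.2 each, two-sided, the smallest possible). Ctsb changed least of the tested cathepsins, so this separation restates the calls above and adds no support. The ratio of Ctsl to Ctsb also kept the groups apart. So did Ctsd to Ctsb, at 2.82, 2.75 and 2.53 in normal and 2.01 and 1.43 in AML libraries, though Ctsd did not pass.

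**Figure D3:**
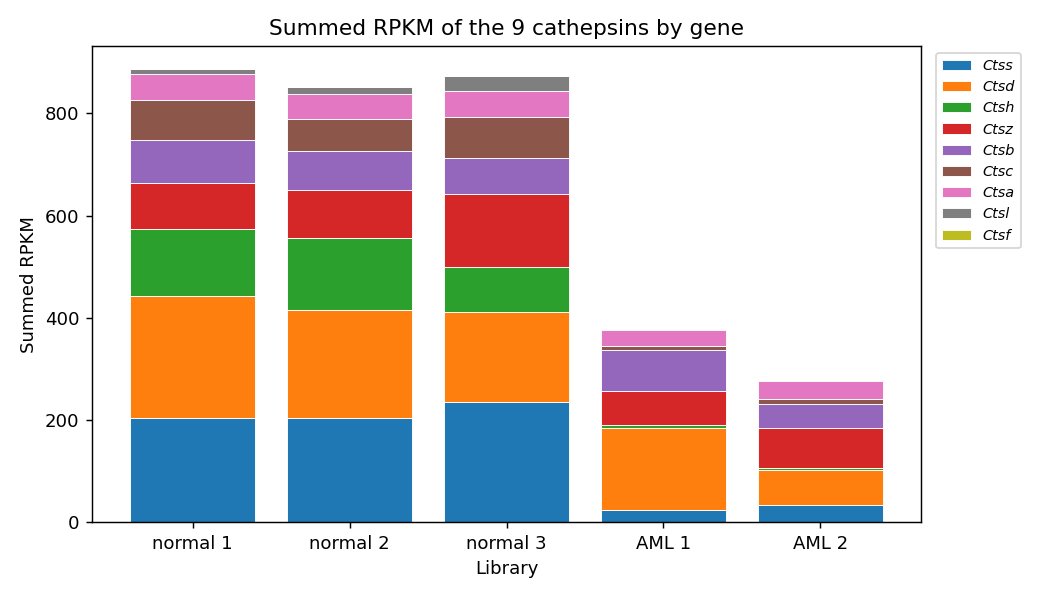
Summed RPKM of the 9 cathepsins in each library, stacked by gene. The normal sums lie between 852 and 888 RPKM and the AML sums at 379 and 278 RPKM, with Ctsh nearly gone from the AML bars, Ctss a smaller part of them than of the normal bars, and Ctsd the part that differs most between the 2 AML libraries.

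The substrates of Ctsc rose where Ctsc itself fell. Of 6 granule serine proteases activated by removal of an N-terminal dipeptide, 4 were tested. All 4 rose, Elane, Prtn3, Ctsg and Gzma (19.3% higher over all genes tested), while Gzmb and Cma1 were under the filter. Elane, neutrophil elastase, was listed at 87.39, 132.24 and 96.02 RPKM in normal and at 5507 and 7580 RPKM in AML libraries. Prtn3, proteinase 3, stood at 45.7, 75.5 and 142 RPKM and at 1876 and 1265 RPKM. Both genes thus lay far above all normal libraries in both AML libraries. Ctsg, cathepsin G, went from 25.7, 61.5 and 27.9 RPKM to 442 and 433 RPKM. Adjusted p-values were 0.00023 for Elane, 0.0014 for Prtn3 and 0.0014 for Ctsg (limma, Benjamini-Hochberg). The call of Gzma, a cytotoxic granule protease at 1.57 RPKM in normal and 4.78 RPKM in AML cells by mean, was lost without AML library 2 (adjusted p = 0.055).

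The summed RPKM of the 6 substrates was 2.06, 4.31 and 3.36 times that of Ctsc in normal libraries and 979 and 998 times in AML libraries (exact permutation p = 0.2, two-sided, the smallest possible). With substrates called higher and Ctsc called lower, this separation restates those calls and adds no support. Elane, Prtn3 and Ctsg were deposited with 2 decimals and Ctsc with 1, formats that differed in direction over all genes tested. Transcript levels do not measure protein or enzyme activity.

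Cystatins and stefins are the cytosolic and secreted inhibitors of papain-family cathepsins. Among their transcripts, stefin A rows and Cst7 moved the other way from the cysteine cathepsins called lower. Of 11 listed rows 10 were tested, 8 rose and none fell, with a median log2 fold change of 5.94 (19.3% higher over all genes tested). Of the 8, 7 were rows of the stefin A family, near-identical neighbours between which reads can be split. They cannot be counted as independent members. The largest were BC100530 (log2 fold change 7.49), Gm5483 (6.99) and Stfa2 (6.57). Cst7, named after its values were seen, encodes cystatin F, an inhibitor that acts on cathepsin C within granules. It was listed at 5.6, 8.98 and 3.77 RPKM in normal and 152.28 and 100.19 RPKM in AML libraries (log2 fold change 4.20, SE 0.36, adjusted p = 0.00057, limma, Benjamini-Hochberg).

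Cst3, cystatin C, and Cstb, stefin B, did not pass. Cst3 stood at 292, 304 and 257.9 RPKM in normal and 254.9 and 161.8 RPKM in AML libraries (adjusted p = 0.23), and Cstb at 41.4 RPKM in normal and 49 RPKM in AML cells by mean (adjusted p = 0.57). Summed inhibitor RPKM was 1.17, 1.54 and 1.44 times the summed RPKM of the 7 cysteine cathepsins in normal libraries and 170 and 436 times in AML libraries. With stefin A rows left out, inhibitor sums were 328, 354 and 314 RPKM in normal and 466 and 301 RPKM in AML libraries. These sums overlapped (exact permutation p = 0.8, two-sided). Their ratio to the cysteine cathepsins was 0.550, 0.598 and 0.487 against 2.49 and 1.72, where the cathepsin sum was lower in AML libraries. Both ratios kept the groups apart (exact permutation p = 0.2 each, two-sided, the smallest possible). That separation restates the lower cathepsin sum, with the higher stefin A rows in the first ratio, and adds no support. Stefin A rows were deposited with 2 decimals and the 7 cysteine cathepsins with 1, formats that differed in direction over all genes tested.

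**Figure D4:**
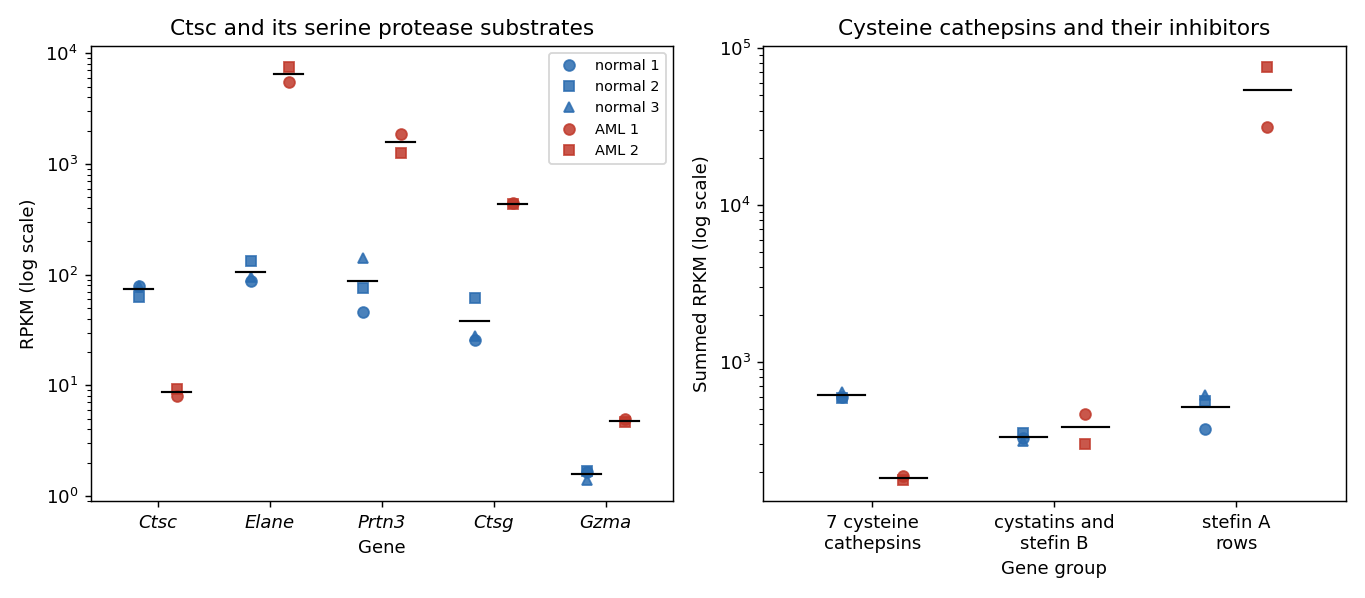
Left, RPKM (log scale) of Ctsc and 4 granule serine proteases it activates; right, summed RPKM (log scale) of the 7 cysteine cathepsins, of cystatins with stefin B, and of stefin A rows; normal libraries in blue, AML libraries in red, black bars at group means. Ctsc and the cysteine cathepsins are lower and the proteases and stefin A rows higher in both AML libraries, and the points of cystatins with stefin B overlap.

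Of 10 other lysosomal and endosomal peptidases 8 were tested, 3 fell and 1 rose, with a median of -0.59. The shares over all genes tested were 11.8% lower and 19.3% higher. The 3 that fell were deposited with 1 decimal and the 1 that rose with 2, formats that differed in direction over all genes tested. Scpep1, a retinoid-inducible serine carboxypeptidase, fell from 11.4, 10.7 and 8 RPKM to 1 RPKM in each AML library (log2 fold change -2.45). Lgmn, legumain, an endopeptidase that cleaves several cathepsins into their 2-chain forms, fell from 17.1, 14.2 and 16.2 RPKM to 3.8 and 3.1 RPKM (log2 fold change -1.92). Both kept the groups well apart. Prcp, prolylcarboxypeptidase, had a log2 fold change of -2.26 and lost its call without AML library 2 (adjusted p = 0.082). Napsa, napsin A, an aspartic protease named after its values were seen, was the gene that rose (log2 fold change 1.39, limma, Benjamini-Hochberg adjusted p = 0.017). Its call was lost without normal library 1 (0.052) or 2 (0.08), without both (0.22) and without AML library 1 (0.099) or 2 (0.082).

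The endosomal aspartic protease Ctse, cathepsin E, named after its values were seen, stood at 207.1, 209.8 and 129.1 RPKM in normal and 113.3 and 94.6 RPKM in AML libraries. In normal libraries 1 and 2 it was thus close to Ctss in level. Its log2 fold change of -0.77 did not pass (limma, Benjamini-Hochberg adjusted p = 0.091) except without normal library 3 (0.01).

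In the complex that Ctsa protects, Neu1, lysosomal sialidase, rose and Glb1, beta-galactosidase, did not pass. Neu1 was listed at 19.62, 21.74 and 32.12 RPKM in normal and 67.45 and 92.86 RPKM in AML libraries, with a log2 fold change of 1.68 (limma, Benjamini-Hochberg adjusted p = 0.0073). All AML values lay above all normal values. Neu1 was deposited with 2 decimals, a format in which 94.5% of tested genes had higher means in AML cells. The call was lost without AML library 2 (adjusted p = 0.076).

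Genes that tag and carry cathepsins to the lysosome mostly did not pass: of 13 tested, 3 rose and 1 fell, with a median of 0.28. Over all genes tested 19.3% rose and 11.8% fell, so these counts do not set the list apart. The 3 that rose were deposited with 2 decimals and the 1 that fell with 1, formats that differed in direction over all genes tested. Gnptab, a subunit of the enzyme that starts the mannose 6-phosphate tag, rose from 8.58, 7.99 and 4.84 RPKM to 31.37 and 29.11 RPKM (adjusted p = 0.0033), and Gga2, a sorting adaptor, had a log2 fold change of 2.19 (adjusted p = 0.0011, limma, Benjamini-Hochberg). Gga1, which also rose, lost its call in 9 of the 14 other settings. The mannose 6-phosphate receptors M6pr (adjusted p = 0.98) and Igf2r (adjusted p = 0.76) did not pass. Psap, prosaposin, fell from 705.7, 589.9 and 378.3 RPKM to 210.3 and 131.6 RPKM (log2 fold change -1.69, adjusted p = 0.014). That call was lost without normal library 2 (0.061), without AML library 2 (0.12) and without normal libraries 1 and 2 together (0.076).

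Of 7 tested genes of MHC class II processing 1 fell, with a median of -0.82. This count does not set the list apart from the 11.8% called lower over all genes tested. The gene called was Ifi30, the lysosomal thiol reductase GILT, deposited with 1 decimal, the format in which lower means were common. It stood at 107.4, 102.3 and 151.1 RPKM in normal and 17.9 and 33.5 RPKM in AML libraries (log2 fold change -2.23, limma, Benjamini-Hochberg adjusted p = 0.0043). Cd74, the invariant chain on which Ctss acts, stood at 111.5, 75.3 and 28.6 RPKM in normal and 24.8 and 30.7 RPKM in AML libraries (adjusted p = 0.14), so that normal library 3 lay with the AML libraries. Without normal library 3, 6 of the 7 genes were called lower.

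Transcription factors of the MiT/TFE family bind E-boxes of lysosomal genes. All 4 were tested, 2 fell and none rose, with a median of -1.01 (11.8% lower and 19.3% higher over all genes tested). All 4 were deposited with 1 decimal, a format in which 11.9% of tested genes had higher means in AML cells. Tcfe3, which encodes TFE3, fell from 32.8, 31.8 and 52.9 RPKM to 6.6 and 6.7 RPKM (log2 fold change -2.35, limma, Benjamini-Hochberg adjusted p = 0.0018). Mitf fell from a mean of 3.03 to 0.5 RPKM (adjusted p = 0.024), and lost its call without normal library 1 (0.056) or 2 (0.07), without AML library 1 (0.11) or 2 (0.15), with no filter (0.058) and under total scaling (0.052). Tcfeb, which encodes TFEB, a regulator of lysosome formation, stood at 14.6, 12.7 and 12.8 RPKM in normal and 7.7 and 8.5 RPKM in AML libraries, and missed the threshold (adjusted p = 0.053). Factors called lower numbered 3 under upper quartile scaling, quantile normalization and total scaling without S100a8 and S100a9. They also numbered 3 with the other variance model and without normal library 3. The count was 1 under total scaling, with no filter and with the minimum of 5 RPKM.

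Promoters are shown for 2 cathepsins that fell and 2 that did not pass, to set their upstream letters beside these values. RefSeq windows (GRCm38.p6, another build than the mm9 of the gene positions above) were matched for 7 of the 9 members, not for Ctsb and Ctsh, and the 250 bases before each annotated start were read 5′ to 3′ on the strand of the gene. The windows printed are chr7:88277835-88278084 on the plus strand for Ctsc, chr3:95526536-95526785 on the plus strand for Ctss, chr7:142387828-142388077 on the minus strand for Ctsd and chr2:164833523-164833772 on the plus strand for Ctsa, the second of 2 Ctsa windows. Capitals mark matches, on either strand, to any of 4 motifs chosen with these windows in view.
Ctsc: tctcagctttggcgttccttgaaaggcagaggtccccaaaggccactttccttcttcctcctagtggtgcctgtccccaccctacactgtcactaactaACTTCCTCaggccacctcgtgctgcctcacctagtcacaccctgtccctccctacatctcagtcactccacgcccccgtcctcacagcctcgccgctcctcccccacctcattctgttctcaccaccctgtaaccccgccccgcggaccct
Ctss: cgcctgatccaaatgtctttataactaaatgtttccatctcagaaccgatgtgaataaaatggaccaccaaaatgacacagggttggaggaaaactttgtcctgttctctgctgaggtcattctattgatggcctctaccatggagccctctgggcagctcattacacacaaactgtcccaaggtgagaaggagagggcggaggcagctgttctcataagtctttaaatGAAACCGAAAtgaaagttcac
Ctsd: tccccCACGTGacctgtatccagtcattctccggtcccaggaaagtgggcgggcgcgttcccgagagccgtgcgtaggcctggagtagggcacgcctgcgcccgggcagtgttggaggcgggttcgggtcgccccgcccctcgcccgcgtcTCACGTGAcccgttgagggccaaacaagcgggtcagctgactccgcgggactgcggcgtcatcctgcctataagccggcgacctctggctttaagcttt
Ctsa: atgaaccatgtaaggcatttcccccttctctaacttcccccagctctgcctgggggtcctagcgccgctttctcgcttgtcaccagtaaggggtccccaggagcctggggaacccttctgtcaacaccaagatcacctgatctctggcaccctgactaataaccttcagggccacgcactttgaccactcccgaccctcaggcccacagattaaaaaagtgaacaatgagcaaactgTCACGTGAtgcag

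The 4 motifs were the E-box CACGTG, its longer form TCACGTGA, which holds the E-box and is the core of the element read by TFEB, a pair of GAAA copies with 2 bases between them, as in interferon-response elements, and GAGGAAGT, of the kind bound by PU.1. Among 32536 distinct windows of 250 bases, 6.04% held CACGTG, 0.793% TCACGTGA, 2.98% the GAAA pair and 2.45% GAGGAAGT. Because the motifs were chosen with the cathepsin windows in view, these shares cannot show whether the matches are unusual. TCACGTGA was found in Ctsa, beginning 13 bases before the start, and in Ctsd, beginning 99 bases before it. Ctsd held a second CACGTG 245 bases before its start, and Ctsf and Ctsl held CACGTG 79 and 236 bases before theirs. Ctss held the GAAA pair 21 bases before its start and Ctsc GAGGAAGT, on the opposite strand, 151 bases before its own. The windows of Ctsz and the first of Ctsa held none. Presence of an E-box did not follow the calls, since Ctsl, which fell, held CACGTG and Ctsz, which did not pass, held none. A match of letters is a description and shows no binding.

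Marker genes of 8 cell types, among them the myeloid cells that the sorts select, differed between the groups in some lists and not in others. Their part in the cathepsin differences was not tested. Of 13 monocyte and macrophage markers 11 fell and none rose (median -3.15). Their summed RPKM was 639 to 1053 in normal and 50.9 to 56.5 in AML libraries, and none was at 0. All 13 were deposited with 1 decimal, a format in which 11.9% of tested genes had higher means in AML cells. Of 11 mature neutrophil markers 7 fell and none rose (median -1.34), and of 6 tested progenitor markers 5 rose and 1 fell. The 7 neutrophil markers and the 1 progenitor marker that fell had 1 decimal, and the 5 progenitor markers that rose had 2. Of 6 tested T and NK cell markers Cd3e, Cd3g, Thy1, Nkg7 and Gzma rose, Gzma being also among the Ctsc substrates. Cd3d fell, from a mean of 42 RPKM in normal to 16.9 RPKM in AML cells. The 5 T and NK cell markers that rose were deposited with 2 decimals and Cd3d with 1. Cd2 (means 0.57 and 0.495 RPKM) and Lck (0.5 and 0.4 RPKM) were under the filter, so the list did not move as 1. The 5 T and NK cell markers called higher became 3 without AML library 1 and 2 without AML library 2, and the 1 called lower became 0 without AML library 2. Of 7 eosinophil and basophil markers 1 rose and 1 fell, and 1 of 4 tested B cell markers fell. With 19.3% higher and 11.8% lower over all genes tested, these small counts do not set those lists apart. None of 5 tested dendritic cell and 6 erythroid markers passed. For each list of which none rose or none fell here, the count in that direction was also 0 at an unadjusted p under 0.05 (limma). Cd34 and Siglech were at 0 in both AML libraries.

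Normal library 3 stood apart from its group in 2 of these lists. Summed eosinophil and basophil markers were 909 and 959 RPKM in normal libraries 1 and 2, 60.1 RPKM in normal library 3, and 122 and 249 RPKM in the AML libraries. Summed erythroid markers were 1530 and 974 RPKM in normal libraries 1 and 2, 101 RPKM in normal library 3, and 116 and 127 RPKM in the AML libraries. For these lists normal library 3 thus lay nearer to the AML libraries than to its group. Within the normal group it had the highest Ctsc, Ctss, Ctsl and Ctsz levels and the lowest Ctsh, Ctsd, Ctsb and Ctsf levels. Without normal library 3 the cathepsins called lower numbered 5, Ctsd being added. Without normal libraries 1 and 2 together, an alternative chosen after seeing the data in which normal library 3 is assumed to vary like the AML pair, they numbered 4, again Ctsh, Ctsc, Ctss and Ctsl.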

How the data were processed

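RNA of FACS-sorted cells had been made into libraries using an Illumina TruSeq kit for RNA (labels' protocols). The authors deposited a single table, whose 5 columns were matched to samples by title. Its values were taken to be RPKM computed by the authors; no header or label names the unit. It was inferred because totals ran from 472234 to 638584 and the products of value and exon length in kb added up to 1059377 to 1124787 per library. Per the submitters' processing notes mm9 was the build; no source used here names the aligner, counter or annotation. The table holds no counts. For single-exon genes the steps among low values gave best trial depths of 26250000 to 76750000 reads, at which 37.3% to 72.6% of values were whole reads within rounding (17.4% to 31.1% by chance), so depth is only roughly known. At those depths Ctsf rested on 7 to 61 reads per library.

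The 10166 genes reaching 1 RPKM in 2 or more libraries were compared as log2(RPKM + 1), which understates changes of low genes, with limma 3.58.1 in R 4.3.3 (variance trend, robust, two-sided) and Benjamini-Hochberg adjustment over all of them, threshold 0.05. The script was tested on simulated data. Means, SDs and ratios are of RPKM. Sums and ratios were tested with exact permutation over libraries (scipy 1.17.1). Cathepsins and lists were chosen with earlier results of these data known. The text names all 9 cathepsins, the 3 called genes of largest change in each of 7 lists (the most abundant where none was called) and the 3 genes nearest in profile to Ctsc; others were chosen after their values were seen. All 132 list entries matched, older symbols through RefSeq synonyms. Positions are from GENCODE M1 (mm9). Of the members 8 were deposited with 1 decimal, Ctsd with 2. Over tested genes 11.9% of those with 1 decimal and 94.5% of those with 2 had higher means in AML cells.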

Additional observations from a re-analysis of the deposited data

How the results depend on the processing

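Under 14 alternatives (4 scalings, 2 filters, another pseudocount, another variance model, rounding to 1 decimal and leaving out each library) Ctsh, Ctsc and Ctss passed in all, with log2 fold changes of -4.48 to -4.12, -3.18 to -2.85 and -3.12 to -2.64, and Ctsl in 12. Between 3 and 5 cathepsins were called lower and none higher. Leaving out a library, Ctsb ranged from -0.68 (without AML library 1) to 0.061 (without AML library 2). Called genes of the 7 lists numbered 24, or 16 without AML library 2 to 33 without normal library 3. The log2 difference of the summed cathepsins was -1.42 (-1.65 to -1.20 leaving out a library) and that of cysteine cathepsins to inhibitors -7.63 (-8.31 to -6.95). Over all genes, leaving out normal library 1 gave 1139 higher and 797 lower calls; normal library 2, 955 and 640; normal library 3, 2757 and 2142; AML library 1, 693 and 605; AML library 2, 326 and 348; both normal libraries 1 and 2, 864 and 471. Total scaling without S100a8 and S100a9 moved the median of all genes by -0.23. Of 7 mature neutrophil markers called lower 4 were left without normal library 2, AML library 1 or AML library 2, and of 5 progenitor markers called higher 2 were left without AML library 1. The 5 T and NK cell markers called higher were also 3 with the minimum of 5 RPKM, and the 1 called lower was 0 without normal libraries 1 and 2. The 1 progenitor marker called lower, Cd34, was 0 under 9 of the 14 alternatives, among them each omission of 1 library except normal library 3, and without normal libraries 1 and 2. The causes were not tested, other than that fewer libraries were fitted. No paired analysis was possible because the groups share fewer than 2 replicate numbers in their titles. With 1 AML library left, that library is assumed to vary like the normal ones.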
